A study of Homo sapiens with 6 samples.

Results

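The mRNAs of 6 proteins reported to bind LARP6 were examined in MDA-MB-231, an established human breast cancer line of the triple-negative type, which lacks the estrogen and progesterone receptors and HER2 overexpression. The genes were chosen by symbol from the count table: VIM, MYH9, MYH10, DHX9, FKBP3 and STRAP. All 6 of the 6 symbols were found among 28675 genes in the table, and all 6 passed the low-count filter that left 16226 genes for testing. The rule uses the symbols only, but the genes were proposed with earlier results of these data known. The study sequenced mRNA from 3 libraries of cells with a no-load control and 3 libraries of cells overexpressing LARP6, and asked which RNAs LARP6 binds and regulates. The labels give the same line for both groups and no treatment, time or clone. They name neither the promoter nor the length of the introduced LARP6 copy, and no label tells whether a group's libraries were grown as separate cultures. The p-values therefore describe the spread among these 6 libraries, and that spread may be technical.

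LARP6 belongs to the La-related proteins, which bind RNA. It is best known for binding a stem-loop at the start codon of the fibrillar collagen mRNAs, which serves to coordinate collagen translation. The partners are reported to act with it in different ways. Vimentin filaments are reported to hold LARP6-bound collagen mRNAs and keep them stable, nonmuscle myosin filaments to link them to the cytoskeleton for translation at the endoplasmic reticulum, RNA helicase A (DHX9) to help load ribosomes on them, FKBP3 to protect LARP6 itself, and STRAP to be tethered to the stem-loop by LARP6. All of these are actions of proteins, whereas the values below are mRNA levels.

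The sequence around the start codon of the collagen mRNAs is shown because it lies in the stem-loop on which these proteins are reported to meet. Each line gives 15 bases before the start codon and 15 bases from it on, read 5′ to 3′ from GENCODE v29 transcripts on GRCh38, with the start codon in capitals.
COL1A1, chr17:50201499-50201528, minus strand, exon 1: gtctagggtctagacATGttcagctttgtg
COL1A2, chr7:94395017-94395046, plus strand, exon 1: gtctaagtgctagacATGctcagctttgtg
COL1A2 matched COL1A1 at 26 of these 30 bases. In the same window the mRNAs of the 6 partners matched COL1A1 at 6 to 11 of 30 bases, so these partner mRNAs did not carry this sequence there. The collagen mRNAs themselves were scarce in these cells. COL1A1 had 107, 128 and 112 counts in the controls, against 123, 106 and 150 with LARP6 overexpressed, and the groups overlapped (log2 fold change 0.14 ± 0.15, SE, edgeR adjusted p = 0.675). COL1A2 had 18 to 27 counts per library.

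Library totals were 29409101 to 33387050 counts. Within a group, pairs of libraries differed by more than counting noise (chi-square per gene 2.06 to 3.62, with counts scaled by library total). This cannot tell separate cultures from separate preparations of 1 culture. Each library was counted as a replicate. LARP6 checked the labels. Its level in CPM, the count divided by the TMM-scaled library size and set to a common total, was 44.2, 40.7 and 43.3 in the controls, against 1995, 2198 and 2131 where it was overexpressed (log2 fold change 5.62 ± 0.04, SE). Of the markers of the line, CD44 was at 702 to 769 CPM and EGFR at 150 to 162 CPM, while the estrogen receptor gene ESR1 had at most 1 count, PGR at most 7 counts, and ERBB2, the HER2 gene, 54.2 to 59.3 CPM. Markers of other cell types were low: the summed level of 3 leukocyte markers was 0.305 to 0.82 CPM, that of 4 fibroblast markers 4.39 to 6.07 CPM and that of the endothelial marker PECAM1 4.74 to 7.13 CPM, with overlapping ranges in the groups. CDH5 was not found by symbol among the counted genes.

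One partner mRNA rose, and the other 5 did not pass the test. VIM, which encodes the intermediate filament protein vimentin, rose by 6.15% in the LARP6 libraries (95% interval 2.66% to 9.76%). MYH9, MYH10, DHX9, FKBP3 and STRAP differed between groups by -2.48% to 3.32%, with 95% intervals that all held 0. In bulk libraries, a change in the RNA per cell and a change in the share of cells that hold it cannot be told apart. Calls were made with edgeR's quasi-likelihood test, at 0.05 after Benjamini-Hochberg adjustment over all 16226 genes. Under that rule 6.03% of tested genes were called (2.43% higher and 3.60% lower), and 12.6% of the 5221 genes at least as abundant as the lowest partner, so 1 call among 6 genes is near the background. The median log2 fold change was 0.04 over the 6 partners and 0.00 over all genes tested. Scaled by library size only, the calls over all genes were 687 higher and 303 lower, against 395 higher and 584 lower with TMM.

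**Figure D1:**
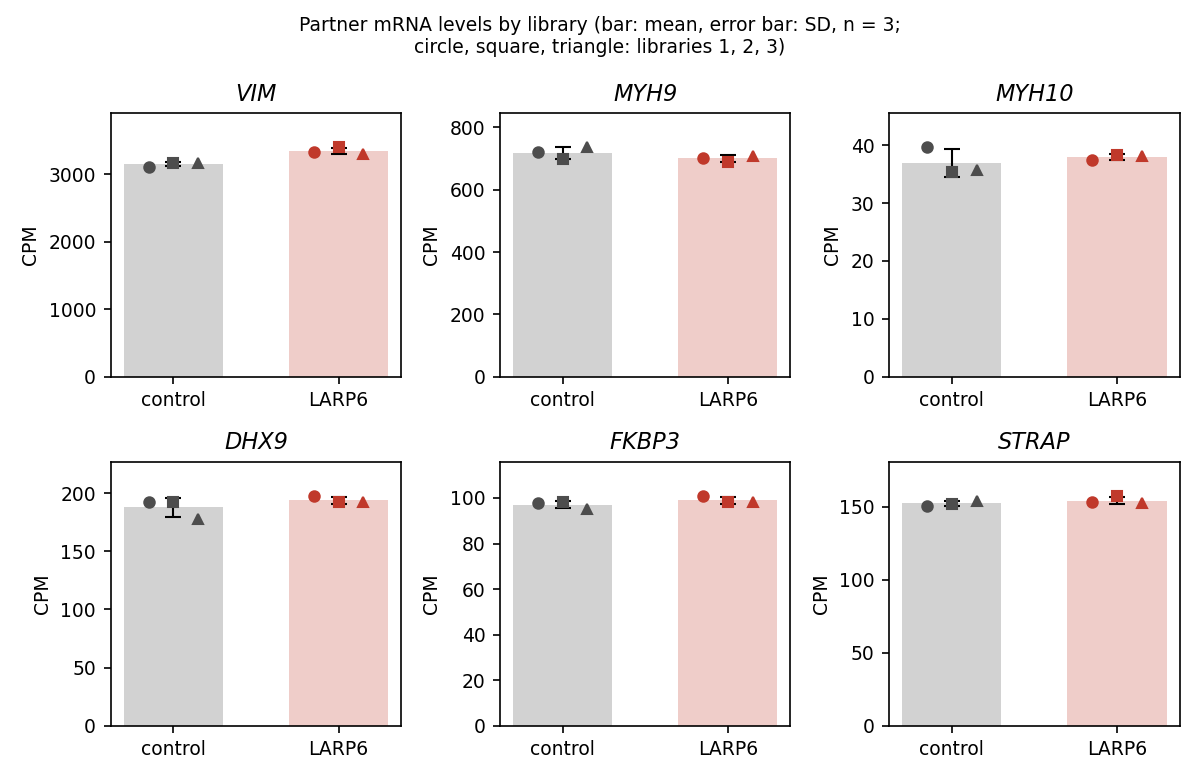
Level of each partner mRNA in CPM (y axis, from 0) in the 3 control and 3 LARP6 libraries (x axis); bars are group means, error bars the SD, and the circle, square and triangle are libraries 1, 2 and 3. Only for VIM do all 3 LARP6 libraries, at 3307 to 3397 CPM, lie above all 3 controls, at 3112 to 3173 CPM.

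Vimentin is the main intermediate filament protein of mesenchymal cells, and its mRNA was by far the most abundant of the 6. VIM (ENSG00000026025.16) lies on chromosome 10 from 17228259 to 17237593 on the plus strand of GRCh38 in GENCODE v29. Control libraries 1, 2 and 3 held it at 3112, 3173 and 3170 CPM, and LARP6 libraries 1, 2 and 3 at 3332, 3397 and 3307 CPM. Every LARP6 library was above every control. Such a lack of overlap was found in 22.3% of all tested genes. The log2 fold change was 0.09 ± 0.02 (SE, edgeR adjusted p = 0.0166). The spread between libraries, a coefficient of variation of 1.09% in the controls and 1.39% in the LARP6 libraries, was larger than the 0.316% that counting alone gives at this depth. VIM took 0.31% of all counts in control library 1 (exact 95% interval 0.308% to 0.312%, counting error only).

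The direction of the VIM change was the same under every alternative, but its call depended on 4 of the 6 libraries. The call was lost without control library 1 (edgeR adjusted p = 0.0731), control library 2 (0.0739), LARP6 library 1 (0.0575) or LARP6 library 2 (0.178), with log2 fold changes of 0.08 to 0.09 in each of these fits. It held without control library 3 (0.00975) and without LARP6 library 3 (0.014). With limma on log2 of FPKM plus 1 the adjusted p was 0.0565, and with a pseudocount of 0.1 it was 0.0465. Over all alternatives the adjusted p ran from 7.58e-05, with library size only, to 0.178.

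**Figure D2:**
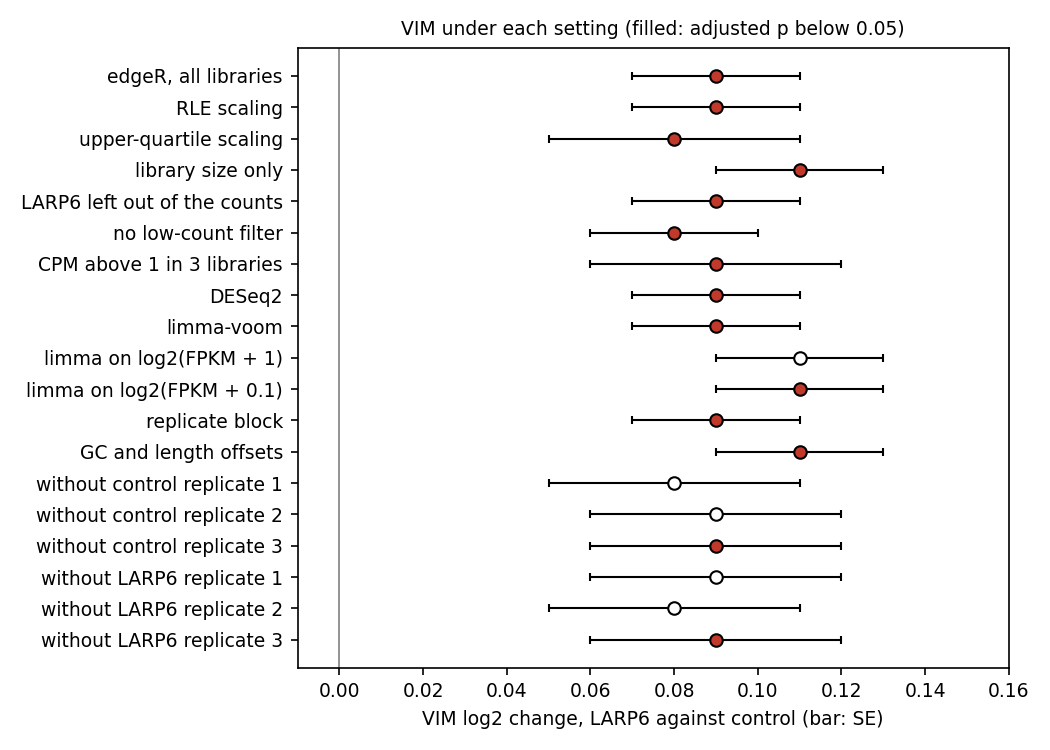
Log2 fold change of VIM (x axis; points with bars of 1 SE) under each way of processing the counts or FPKM values (y axis); filled points have an adjusted p below 0.05. Every setting gives a rise of 0.08 to 0.11, and the open points, 4 of the 6 fits that leave out a library and limma on log2(FPKM + 1), miss the threshold.

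VIM shares its locus with antisense genes, whose counts bear on how its own were made. VIM-AS1 (chromosome 10 from 17214239 to 17229985, minus strand) overlaps it by 1727 bases and shares a run of 641 bases with the main VIM transcript in antisense. VIM-AS1 stood at 60.2, 62.6 and 57.5 CPM in the controls, against 65.9, 61.8 and 56.6 CPM with LARP6 overexpressed, so its groups overlapped (log2 fold change 0.03 ± 0.04, SE, edgeR adjusted p = 0.766). Another antisense gene, listed as RP11-124N14.3, lies within VIM from 17233325 to 17234833 and averaged 79.3 CPM in the controls and 79.5 CPM in the others (edgeR adjusted p = 0.991). The libraries kept strand, but whether the counting used strand is not stated in the sources used here, so reads of VIM and of these genes may not have been told apart. The processed pseudogene VIM2P had 1 count in 1 library and 0 in the other 5. Among GENCODE v29 transcripts in the same orientation, the longest run found to be shared with VIM was 33 bases, with the hair keratin KRT81 and its close relatives, far below the read length of 150 bases.

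The nonmuscle myosin II heavy chains form the motor filaments that pull on actin bundles. MYH9 encodes the heavy chain of nonmuscle myosin IIA and MYH10 that of IIB. MYH9 (ENSG00000100345.22, chromosome 22 from 36281277 to 36388067, minus strand) stood at 720, 697 and 735 CPM in the controls, against 702, 689 and 709 CPM with LARP6 overexpressed. The groups overlapped, with 1 LARP6 library below all the controls, and MYH9 did not pass the test (log2 fold change -0.04, 95% interval -0.09 to 0.01, edgeR adjusted p = 0.471). MYH10 (ENSG00000133026.13, chromosome 17 from 8474205 to 8630761, minus strand) stood at 39.6, 35.3 and 35.7 CPM in the controls, against 37.4, 38.3 and 38.1 CPM with LARP6 overexpressed. Control library 1 was the highest of the 6 and the other controls the lowest, so the groups overlapped (log2 fold change 0.04, 95% interval -0.06 to 0.14, edgeR adjusted p = 0.736). MYH14, the heavy chain of the third form, IIC, had 7 counts over all 6 libraries and was not tested.

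Both myosin heavy chains could be counted apart, which their coding sequences show. Aligned end to end, MYH9 and MYH10 were identical at 74.3% of 5854 aligned coding bases, and the longest identical run was 31 bases. That run is printed below with 15 bases on each side, 5′ to 3′, and capitals mark the 10 bases that differ. It spans the junction of exons 31 and 32 of 41 in each of the GENCODE v29 transcripts used, so the GRCh38 coordinates take in an intron that the letters leave out.
MYH9, coding bases 4301 to 4361, chr22:36289281-36292029, minus strand: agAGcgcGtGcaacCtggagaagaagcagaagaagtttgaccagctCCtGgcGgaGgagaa
MYH10, coding bases 4322 to 4382, chr17:8492493-8492819, minus strand: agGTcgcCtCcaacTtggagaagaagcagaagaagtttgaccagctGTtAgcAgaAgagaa
Even at their most alike, the 2 mRNAs therefore differ within the length of a read. MYH9 shared a longer run, of 95 bases, with the smooth muscle heavy chain MYH11, which had 7 to 17 counts per library. MYH10 overlaps NDEL1 on the other strand by 16207 bases of the gene, with 74 bases shared between their transcripts. NDEL1 did not pass the test either, with a mean of 48.5 ± 1.32 CPM against 48.2 ± 1.64 CPM (SD, n = 3 each; edgeR adjusted p = 0.956).

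The balance of the heavy chains was compared per length, on the FPKM scale that the authors deposited. MYH10 was at 5.43%, 5.0% and 4.8% of the MYH9 level in control libraries 1, 2 and 3, and at 5.26%, 5.49% and 5.32% in LARP6 libraries 1, 2 and 3. The ranges overlapped, and the log2 ratio was higher by 0.08 in the LARP6 libraries (exact permutation test, two-sided, p = 0.3, where 3 libraries against 3 cannot go below 0.1). MYH14 was listed at no more than 0.01 FPKM.

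DHX9, FKBP3 and STRAP did not pass the test either. DHX9, an RNA helicase of the DExH family (ENSG00000135829.17, chromosome 1 from 182839369 to 182887751, plus strand), stood at 193, 193 and 178 CPM in the controls, against 197, 192 and 192 CPM with LARP6 overexpressed. Control library 3 was the lowest, and the other 5 libraries lay close together. Its log2 fold change was 0.05 (95% interval -0.01 to 0.11, edgeR adjusted p = 0.417).

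FKBP3 encodes a nuclear prolyl isomerase of the rapamycin-binding FKBP family (ENSG00000100442.11, chromosome 14 from 45115600 to 45135319, minus strand). It stood at 97.8, 98.1 and 95.3 CPM in the controls, against 101, 98.1 and 98.3 CPM with LARP6 overexpressed. LARP6 libraries 1 and 3 lay above all the controls and the groups overlapped (log2 fold change 0.03, 95% interval -0.04 to 0.10, edgeR adjusted p = 0.712). STRAP, a WD-repeat protein that binds TGF-beta receptors and the SMN complex (ENSG00000023734.11, chromosome 12 from 15882391 to 15903478, plus strand), stood at 151, 152 and 154 CPM in the controls, against 153, 157 and 152 CPM with LARP6 overexpressed. LARP6 library 2 was the highest and the others overlapped (log2 fold change 0.02, 95% interval -0.04 to 0.08, edgeR adjusted p = 0.811).

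FKBP3 has a neighbour that did pass. PRPF39, which encodes a splicing factor of the U1 snRNP, lies on the other strand and overlaps the end of FKBP3 by 683 bases, and 1 of its transcripts shares a run of 653 bases with FKBP3 in antisense. PRPF39 stood at 18.4, 17.7 and 16.2 CPM in the controls, against 21.9, 20.9 and 19.7 CPM with LARP6 overexpressed, and the groups did not overlap. It rose by 0.26 ± 0.07 on the log2 scale (SE, edgeR adjusted p = 0.0132), a call kept in 12 of 18 alternatives. It was lost with GC and length offsets (0.17 on the log2 scale, adjusted p = 0.174), with limma on log2 of FPKM plus 1 (0.115) or plus 0.1 (0.111), and on leaving out control library 3 (0.0998), or library 1 (0.141) or 2 (0.0611) of the LARP6 group. In the fits with limma or without a library that lost the call, the log2 change was 0.21 to 0.27. Whether reads of these overlapping genes were told apart by strand was not tested. DHX9 shared at most 84 bases with another gene and STRAP at most 69, in each case with a processed pseudogene.

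The size of change that the data could call differed between partners. Given its standard error and the largest p-value called (0.00302), VIM had to rise by 5.23% or more, MYH9 by 5.49%, DHX9 by 6.53%, STRAP by 6.72%, FKBP3 by 7.69% and MYH10 by 11.5%. The 95% intervals bounded a rise at 0.996% for MYH9, 5.68% for STRAP, 7.17% for FKBP3, 7.69% for DHX9 and 10.5% for MYH10, and the lower bound for MYH9 was -5.83%. MYH10 was the least precise, with a coefficient of variation of 6.40% in the controls, where counting alone gives 2.95%.

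**Figure D3:**
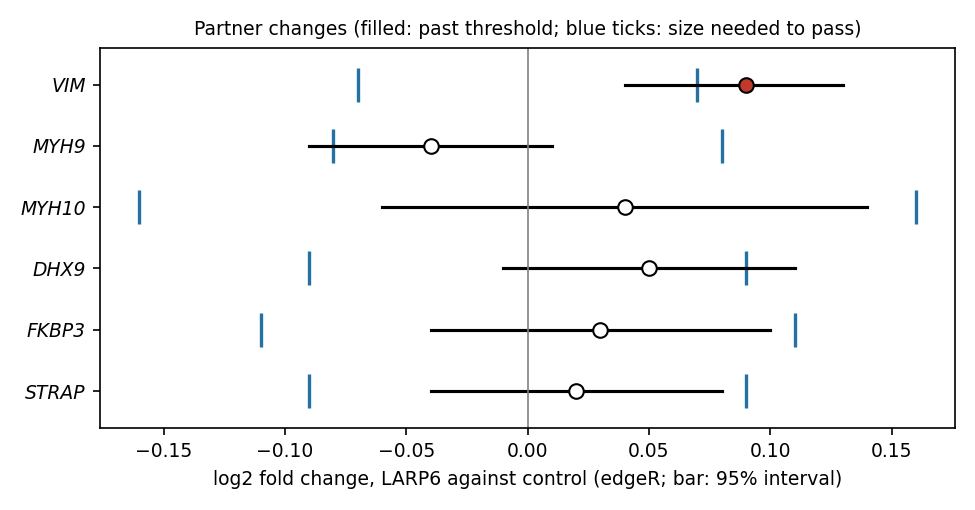
Log2 fold change of each partner in LARP6 against control libraries (x axis) with its 95% interval (bar), and blue ticks at the size of change that would have passed the threshold. VIM, at 0.09, is the one partner beyond its tick, and the intervals of the other 5 cross 0.

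Changes in these libraries varied with the GC content of the transcript, and this is given beside the partners. Among genes of at least 20 CPM within 1 percentage point of GC content, the median log2 fold change was 0.04 around FKBP3 (41.8% GC, 639 genes), 0.02 around DHX9 (43.9%, 604 genes) and -0.05 around MYH9 (58.6%, 523 genes). The values of FKBP3 (0.03) and MYH9 (-0.04) lay within 0.01 of those medians, and STRAP (0.02) was at the median of its 593 neighbours. DHX9 (0.05) lay above its median of 0.02, and MYH10 (49.1% GC, 0.04) above the median of 0.00 over its 457 neighbours. VIM, at 54.2% GC, rose by 0.09 where the median of its 470 neighbours was -0.03 and their upper quartile 0.01. With offsets for GC content and length, VIM changed by 0.11 (edgeR adjusted p = 0.000455), MYH9 by -0.02, MYH10 by 0.00, DHX9 by 0.00, FKBP3 by 0.00 and STRAP by -0.01.

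The levels of the partners spanned more than 2 orders of magnitude per length, and overexpression moved LARP6 mRNA through that order. In the authors' FPKM values, the order in both groups was VIM, MYH9, STRAP, FKBP3, DHX9 and MYH10, and no neighbouring pair overlapped over the 3 libraries of a group. On this scale, which is not TMM-scaled, FKBP3 (36.7 to 38.0 against 38.6 to 39.6 FPKM), DHX9 (26.27 to 28.7 against 29.01 to 29.71 FPKM) and STRAP (59.83 to 60.72 against 61.32 to 63.26 FPKM) also lay higher in every LARP6 library than in any control. They did not pass limma's test on log2(FPKM + 1) (adjusted p = 0.353, 0.385 and 0.407). The share of all genes without overlap on this scale was not computed, so whether this is particular to these partners cannot be told. In TMM-scaled CPM the groups overlapped for FKBP3, DHX9 and STRAP. Log2 fold changes in that limma fit were higher than in the main fit by a median of 0.022 over the genes. The control means were 533 FPKM for VIM, 70.5 for MYH9, 60.2 for STRAP, 37.5 for FKBP3, 27.8 for DHX9 and 3.58 for MYH10. Among 16346 protein-coding genes ranked by mean FPKM, VIM was at place 46, MYH9 at 561, STRAP at 646, FKBP3 at 1127, DHX9 at 1547 and MYH10 at 6794.

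LARP6 itself was at 7.0, 6.4 and 6.8 FPKM in the controls, below DHX9 and above MYH10. In the LARP6 libraries it was at 319, 353 and 342 FPKM, below VIM and above MYH9. In control cells there were 79.2 ± 4.12 VIM, 10.5 ± 0.278 MYH9, 8.95 ± 0.414 STRAP, 5.58 ± 0.293 FKBP3, 4.14 ± 0.301 DHX9 and 0.531 ± 0.0222 MYH10 per LARP6 on this scale (SD, n = 3). In the LARP6 libraries the ratio was 1.70 ± 0.0757 for VIM and 0.207 ± 0.0119 for MYH9 (SD, n = 3). LARP6 mRNA was there 5.45 ± 0.223 times the STRAP level, 8.68 ± 0.554 times FKBP3, 11.6 ± 0.738 times DHX9 and 90.2 ± 3.34 times MYH10 (SD, n = 3). LARP6 is the gene the study raised, so these shifts are a description and were not tested, and mRNA ratios do not give ratios of proteins.

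The length behind the FPKM values sets the size of the ratio of VIM to LARP6. The deposited FPKM and counts implied a length of 5.86 kb for VIM, 2.75 times its main transcript of 2135 bases, and 1.33 to 1.58 times the main transcript for the other partners. Per kilobase of main transcript, VIM was at 155 per LARP6 in controls and 3.33 in LARP6 libraries, while the order of the 6 partners was the same. For LARP6 the implied length was 6.29 kb, against 1476 coding bases. The labels do not give the length of the introduced copy. The level of LARP6 per length in the LARP6 libraries is therefore uncertain, and so is its place below VIM.

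**Figure D4:**
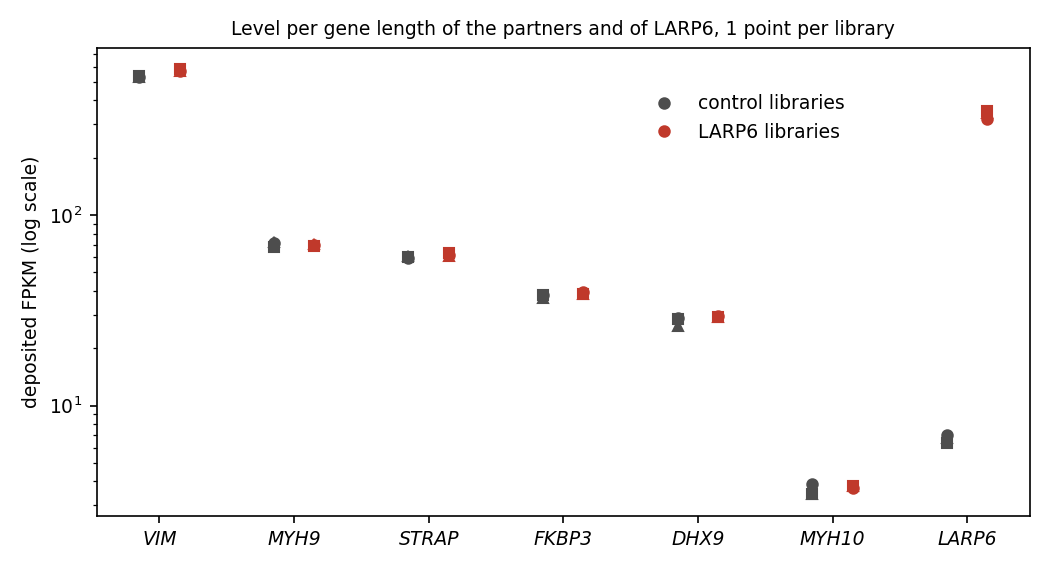
Deposited FPKM (y axis, log scale) of the 6 partners and LARP6 (x axis), 1 point per library, with grey for control and red for LARP6 libraries. Each partner keeps its place in both groups, while LARP6 moves from between DHX9 and MYH10, at 6.4 to 7.0 FPKM, to between VIM and MYH9, at 319 to 353 FPKM.

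The relatives and working partners of these proteins were counted in the same fit. Among intermediate filament and linker genes, 19 of 25 passed the filter, of which 1 rose, 2 fell and 16 were not called (median log2 fold change -0.03), where 6.03% of all tested genes and 12.6% of those at least as abundant as MYH10 were called. PLEC, which encodes plectin, the linker of vimentin to other parts of the cytoskeleton, rose by 0.10 ± 0.03 (SE) on the log2 scale (edgeR adjusted p = 0.00526). Its mean was 648 ± 18.5 CPM in controls against 696 ± 16.8 CPM (SD, n = 3 each), and it lost its call without control library 2 (0.08 on the log2 scale, adjusted p = 0.133). The hair keratin KRT81 fell by 0.18 on the log2 scale (SE 0.03, edgeR adjusted p = 2.06e-05) and the epithelial keratin KRT80 by 0.13 (SE 0.03, adjusted p = 0.00258), and KRT81 can share reads with KRT86 and KRT83. The type III filament gene DES had at most 1 count in a library, and PRPH was not found by symbol among the counted genes. Of the keratins and lamins that were not called, KRT8, at 1050 CPM in each group, and LMNA, at 841 and 862 CPM, were picked after their values were seen.

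Among nonmuscle myosin II and actin bundle genes, 33 of 35 passed the filter, of which 2 rose, 5 fell and 26 were not called (median -0.01), beside the same 6.03% and 12.6%. CNN2, the actin-binding calponin 2, fell by 0.15 on the log2 scale (SE 0.03, edgeR adjusted p = 2.5e-05). ACTB fell from 7350 ± 73.6 to 6800 ± 16.2 CPM and ACTG1 from 3980 ± 74.5 to 3720 ± 34.5 CPM (SD, n = 3 each), with adjusted p-values of 0.000673 and 0.00567 in edgeR. ACTB kept its call in 16 of 18 alternatives and ACTG1 in 12 of 18, which it lost among others on leaving out control library 2 (0.0545) or library 1 (0.0526) or 2 (0.0724) of the LARP6 group, with log2 changes of -0.10, -0.09 and -0.09. These cytoplasmic actins are near copies of each other with many pseudogenes, so each one's share is uncertain. Of the other calls, 3 are named here after their values were seen: MYL9, a regulatory light chain (-0.12), and ACTN1, alpha-actinin (-0.08), were lower, and MPRIP, which binds myosin phosphatase (0.09), was higher. Of the 18 alternatives they kept their calls in 12, 7 and 10. The 7 calls became 2 without LARP6 library 1 or LARP6 library 2, 3 without control library 2 and 4 without control library 1. They were 4 with GC and length offsets and 4 with no low-count filter. Unlike MYL9, the light chains MYL6, MYL6B, MYL12A and MYL12B, also picked after their values were seen, did not pass. In the control and LARP6 groups, MYL6 was at 952 and 937 CPM and MYL6B at 231 and 230 CPM. MYL12A was at 456 and 447 CPM and MYL12B at 752 and 741 CPM.

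No tested gene of the other 4 lists was called by the main edgeR fit, DESeq2 or limma-voom. Some edgeR alternatives called 1 or 2 genes of a list. Among 16 DExH helicases the smallest p was that of DHX40 (log2 fold change 0.14 ± 0.06, SE, edgeR adjusted p = 0.166). Among 12 tested FKBP genes it was that of FKBP8 (-0.08 ± 0.03, adjusted p = 0.0651). In the SMN list of 10 it was that of DDX20 (0.08 ± 0.06, adjusted p = 0.461), and SMN1 and SMN2 are near copies that can share reads. Among 12 TGF-beta ligand, receptor and SMAD genes it was that of TGFB1 (-0.09 ± 0.03, adjusted p = 0.0562). The median log2 fold changes were 0.04 for the helicases, -0.01 for the FKBP genes, -0.02 for the SMN list and 0.00 for the TGF-beta list, against 0.00 over all genes.

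**Figure D5:**
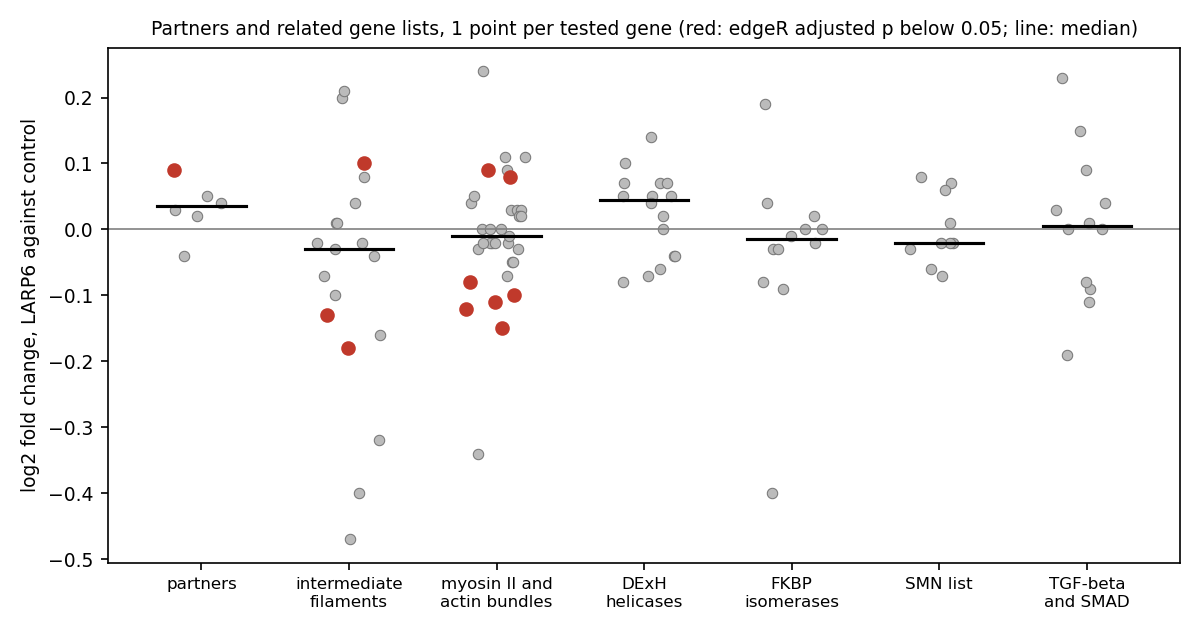
Log2 fold change (y axis) of the 6 partners and of each tested gene of the 6 related lists (x axis), with called genes in red and the median of each list as a line. Calls are seen in the partners (VIM), the intermediate filament list (3 genes) and the myosin and actin list (7 genes).

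For each partner, the 2 genes with the most similar course over the 6 libraries were found among 7354 protein-coding genes of at least 20 CPM. Likeness was the root mean square difference of log2 CPM, each gene centred on its own mean, so smaller values are closer. TTL, the tubulin tyrosine ligase gene (0.008), and GLUD1, a glutamate dehydrogenase gene (0.01), were closest to VIM. Their log2 fold changes were 0.08 and 0.07, and neither passed the test. STAT3 (0.007) and SSRP1 (0.008) were closest to MYH9, and ME2 (0.01) and ATG4B (0.012) to MYH10. RAB5A (0.008) and FBXO11 (0.011) were closest to DHX9, TMEM167A (0.008) and WWP1 (0.01) to FKBP3, and RRM2 (0.005) and MAVS (0.006) to STRAP. The median distance of all candidate genes was 0.057 to 0.08, and picking the 2 closest of 7354 sets the named genes below it. No gene of a partner's own list was among these 12, but each list is a small part of the candidates. Whether any gene was closer than unrelated genes would be was not tested.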

How the data were processed

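Messenger RNA was sequenced as paired reads of 150 bases from a strand-keeping library kit, per the labels' protocols. The authors deposited read counts per gene and FPKM values per gene, 1 column per library. The submitters' processing notes list HISAT2, DESeq2 and GRCh38 with neither version nor role. For the read counter and the annotation, tool and release are not stated in these sources. The 6 partners and the gene lists were chosen with earlier results of these data known.

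The deposited counts went unchanged into edgeR 4.0.16 (R 4.3.3): its expression filter, TMM scaling and the robust quasi-likelihood test of LARP6 against control, with no covariate. CPM was computed from the counts. Intervals are 95% intervals from the fit. Lengths, GC content, coordinates and shared runs of at least 31 bases come from GENCODE v29, with 1 main transcript per gene (98.9% of tested genes matched). Simulated counts were used to try the edgeR fit only.

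Depth was 29409101 to 33387050 counts. Groups and replicate numbers came from titles. Named list genes were up to 3 called members with the smallest p, or 1 where none passed. Alternatives were other scalings and filters, LARP6 left out, DESeq2 1.42.0, limma 3.58.1 (voom, or FPKM on a log2 scale with 1 or 0.1 added), the replicate number as a block, GC and length offsets, and each library left out. Splicing was not analysed here. A few list members and markers are counted in their lists but not reported here by name.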

Additional observations from a re-analysis of the deposited data

How the results depend on the processing

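LARP6, at 5.59 to 5.66 on the log2 scale when a library was left out, and VIM, at 0.08 to 0.11 under every setting, kept their direction. The number of partners called, 1, became 0 with limma on log2(FPKM + 1), where VIM was at 0.11, and 0 at an adjusted p below 0.01, and was 0 to 1 when a library was left out (VIM at 0.08 to 0.09). With GC and length offsets DHX9 (0.00), FKBP3 (0.00) and STRAP (-0.01) changed sign, all within their error.

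The genes called, 979, became 611 with DESeq2, 90 and 92 with limma on log2 of FPKM plus 1 and plus 0.1, 548 with GC and length offsets, 443 at an adjusted p below 0.01 and 456 to 1040 when a library was left out (650 on dropping control library 2, and 459 and 456 on dropping library 1 or 2 of the LARP6 group). The intermediate filament calls, 3, and the myosin and actin calls, 7, were 0 with either FPKM setting, and 2 to 4 and 2 to 6 when a library was left out. The myosin and actin calls were 4 with no low-count filter and 4 with GC and length offsets. From 0, the helicase calls became 1 with library size only and 0 to 1 when a library was left out. The FKBP calls became 1 with the replicate block and 0 to 2 when a library was left out, the SMN calls 1 with GC and length offsets, and the TGF-beta calls 2 with GC and length offsets, 1 with the replicate block and 0 to 1 when a library was left out. The causes were not tested, but the fits without a library have fewer samples.

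Same-numbered libraries deviated together with correlations of 0.08, 0.04 and 0.21 over 11072 genes, not all above 0.1. The main fit held no replicate block, and whether same-numbered libraries were handled together was not tested. With the replicate block, 1345 genes passed and VIM was at 0.09 (adjusted p = 0.00029). The block changed no call among the partners. The log2 ratio of MYH10 to MYH9 stayed positive, at 0.04 to 0.13, when a library was left out.

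Per kilobase of main transcript in place of deposited FPKM, the ratios to LARP6 in control and LARP6 libraries were 155 and 3.33 for VIM, 0.503 and 0.0105 for MYH10 (from 0.531 and 0.0111), 4.64 and 0.0971 for DHX9 and 6.04 and 0.125 for FKBP3. MYH9 was at 9.94 in controls and STRAP at 0.176 in LARP6 libraries.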
